A study of Homo sapiens with 9 samples.

Results

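A set of 67 protein-coding genes was read at 50 counts or more on average in 786-O cells and was nearly unread in their metastatic derivative 786-M1A. A gene belonged to the set when its raw read counts averaged at least 50 over the 3 libraries of 786-O and were at most 10 in each of the 3 libraries of 786-M1A. Of 28395 genes listed, 12206 reached the minimum in 786-O, 71 of these also kept to the maximum in 786-M1A, and 4 of the 71 were left out by name, which left 67 genes, or 0.549% of the 12206. The 786-O and 786-M1A counts therefore chose the genes, and every difference between these 2 lines given for them is a description that carries no test. The same rule applied in reverse, from 786-O to 786-M1A, found 12 genes.

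Polyadenylated RNA was sequenced from 3 human kidney cell lines with 3 libraries each. HK2 is an epithelial line from proximal tubule of normal kidney. 786-O is a line from a primary clear cell renal cell carcinoma, and 786-M1A was obtained from it after growth in the lung of an injected host. All 3 lines were kept in Plasmax, a medium with the nutrient levels of human serum, and no line was treated or genetically altered for these libraries. Each line is a single culture lineage, and 786-M1A stands for 1 derivative of 786-O, so the set describes this pair of lines. By the study's methods the cells of a line were plated on replicate dishes the day before extraction, and the libraries of a line are described as independent cultures. The p-values therefore measure the spread between such cultures of 1 line.

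Library totals ran from 30212291 to 45362428 counts, and libraries of the same line correlated at 0.997 to 0.998. A maximum of 10 counts in a 786-M1A library amounted to 0.26 to 0.276 CPM (counts of a gene relative to the scaled total of its library), so a gene called near-silent here could still hold that much RNA. Of 14 kidney epithelium markers, 8 averaged more than 1 CPM in all 3 lines, among them PAX8, PAX2, KRT8, KRT18, CDH2, ANPEP and GGT1. The other 6 did not, since EPCAM was under that level in 786-O, CDH1 in both cancer lines, CUBN, AQP1 and SLC34A1 in at least 1 line each, and LRP2, which encodes the proximal tubule receptor megalin, had 0 counts everywhere. Endothelial markers summed to at most 1.244 CPM and blood cell markers to at most 0.496 CPM in any library. In bulk RNA, fewer cells that express a gene and less RNA of that gene per cell cannot be told apart.

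Cells shut genes off by removing the activators that an enhancer or promoter needs, or by closing the promoter with repressive chromatin. At promoters rich in CG dinucleotides (CpG), methylation of the cytosines and the Polycomb mark on histone H3 are the usual marks of a gene that stays closed through cell division. CpG-poor promoters depend more on tissue-specific activators. Neither DNA methylation nor chromatin was measured in these libraries, and RNA counts alone do not separate these routes.

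The 250 bases before the annotated start of 6 genes of the set are printed here because they span its range, from a promoter full of CpG to one with none. They come from RefSeq promoter windows on GRCh38.p14, run 5′ to 3′ along the gene's strand, and have each CpG in capitals. AJAP1 and COL4A5 are shown as the 2 genes with the highest CPM in 786-O, ADGRB3 and PDE6A as those with the highest and the lowest CpG ratio, PTH1R as another CpG-poor receptor gene, and HLA-DPB1 as a member of a gene pair.
AJAP1, chr1:4654359-4654608, plus strand: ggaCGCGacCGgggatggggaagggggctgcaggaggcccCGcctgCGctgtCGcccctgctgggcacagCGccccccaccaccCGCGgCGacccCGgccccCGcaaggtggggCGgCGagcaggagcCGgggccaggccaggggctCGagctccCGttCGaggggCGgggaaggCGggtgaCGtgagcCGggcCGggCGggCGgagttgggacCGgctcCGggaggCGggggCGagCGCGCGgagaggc
COL4A5, chrX:108439588-108439837, plus strand: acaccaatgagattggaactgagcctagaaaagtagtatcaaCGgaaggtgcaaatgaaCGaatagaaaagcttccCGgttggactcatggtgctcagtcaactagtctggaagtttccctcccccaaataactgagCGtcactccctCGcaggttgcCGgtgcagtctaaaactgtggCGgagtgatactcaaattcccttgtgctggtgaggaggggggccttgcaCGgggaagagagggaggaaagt
ADGRB3, chr6:68635032-68635281, plus strand: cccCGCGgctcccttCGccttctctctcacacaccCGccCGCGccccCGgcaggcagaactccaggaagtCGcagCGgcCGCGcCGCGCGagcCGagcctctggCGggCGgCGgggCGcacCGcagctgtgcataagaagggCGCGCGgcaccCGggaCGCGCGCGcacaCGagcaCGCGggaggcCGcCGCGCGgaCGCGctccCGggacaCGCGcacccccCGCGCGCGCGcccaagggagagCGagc
PTH1R, chr3:46877471-46877720, plus strand: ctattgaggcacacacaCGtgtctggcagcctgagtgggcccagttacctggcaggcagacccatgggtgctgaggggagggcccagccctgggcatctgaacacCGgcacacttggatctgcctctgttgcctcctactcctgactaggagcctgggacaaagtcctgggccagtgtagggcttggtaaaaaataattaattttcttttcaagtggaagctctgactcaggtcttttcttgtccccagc
HLA-DPB1, chr6:33075740-33075989, plus strand: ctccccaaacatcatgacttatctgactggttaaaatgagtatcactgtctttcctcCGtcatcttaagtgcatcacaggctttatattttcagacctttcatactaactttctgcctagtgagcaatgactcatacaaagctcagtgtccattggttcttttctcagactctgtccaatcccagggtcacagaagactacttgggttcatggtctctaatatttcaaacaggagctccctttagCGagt
PDE6A, chr5:149944794-149945043, minus strand: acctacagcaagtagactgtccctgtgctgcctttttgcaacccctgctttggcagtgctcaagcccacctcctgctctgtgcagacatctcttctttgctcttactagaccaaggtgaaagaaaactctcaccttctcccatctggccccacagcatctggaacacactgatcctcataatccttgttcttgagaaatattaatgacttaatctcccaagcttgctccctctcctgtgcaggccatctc

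The ADGRB3 stretch holds 46 CpG and the AJAP1 stretch 32, against 8 in COL4A5, 2 each in PTH1R and HLA-DPB1 and 0 in PDE6A. RefSeq windows of 300 bases (250 before and 50 after the start) were matched by gene identifier for 52 of the 67 genes. The most upstream start was used for the 18 genes with more than 1. A window was called CpG-dense when its observed over expected CpG ratio was above 0.6 and its GC content above 50%. By that definition 33 of the 52 promoters, or 63.5%, were CpG-dense. The share was 46.6% over all 27305 promoters in the table, 81.7% over genes with a 786-O mean of at least 50 counts, and 65.1% over the 1158 genes outside the set whose 786-O mean lay between 50 and 200. Over the 43 genes of the set with a window and a 786-O mean under 200 counts, the share was 62.8%. The set thus sat close to other genes of its own low level and below the genes of 786-O at large.

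Among short motifs searched on both strands of the 300 bases, the GC box GGGCGG occurred in 34 of the 52 promoters, or 65.4%. The share was 60.4% over the 1158 genes outside the set with a 786-O mean of 50 to 200 counts. These genes are the comparison for each motif, although the 52 were not limited to that range. The ETS site CCGGAAG occurred in 2 of 52, or 3.85%, against 13.7%, and the TEAD site GGAATG also in 2, against 12.4%. The hypoxia response core ACGTG, which lies within the E-box CACGTG, occurred in 9 promoters, or 17.3%, against 21.9%. The AP-1 site TGANTCA occurred in 3 (5.77%, against 6.39%), the TATA box TATAAA in 5 (9.62%, against 8.03%) and the E-box in 4 (7.69%, against 7.08%). The RUNX site AACCACA occurred in 1 (1.92%, against 4.58%). The cyclic AMP response element TGACGTCA and the HNF4 site CAAAGTCCA were in none of the 52, against 2.16% and 0.518%. These are letter matches in a short window and not evidence of binding.

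The mean count of the 67 genes in 786-O ran from 51.3 to 928 with a median of 95.3, and 35 genes lay under 100. COL4A5, AJAP1 and TEX15 had the 3 highest means. In 786-M1A the 3 libraries together held a median of 9 counts per gene and at most 26. Summed over the set, HK2 held 530.3 ± 7.93 CPM (SD, n = 3), 786-O held 230.6 ± 6.92 and 786-M1A held 5.98 ± 0.239. Only 6 genes had 0 counts in every 786-M1A library, while the other 61 kept between 1 and 26 counts in all. Why RNA of these genes was low or absent was not tested.

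**Figure D1:**
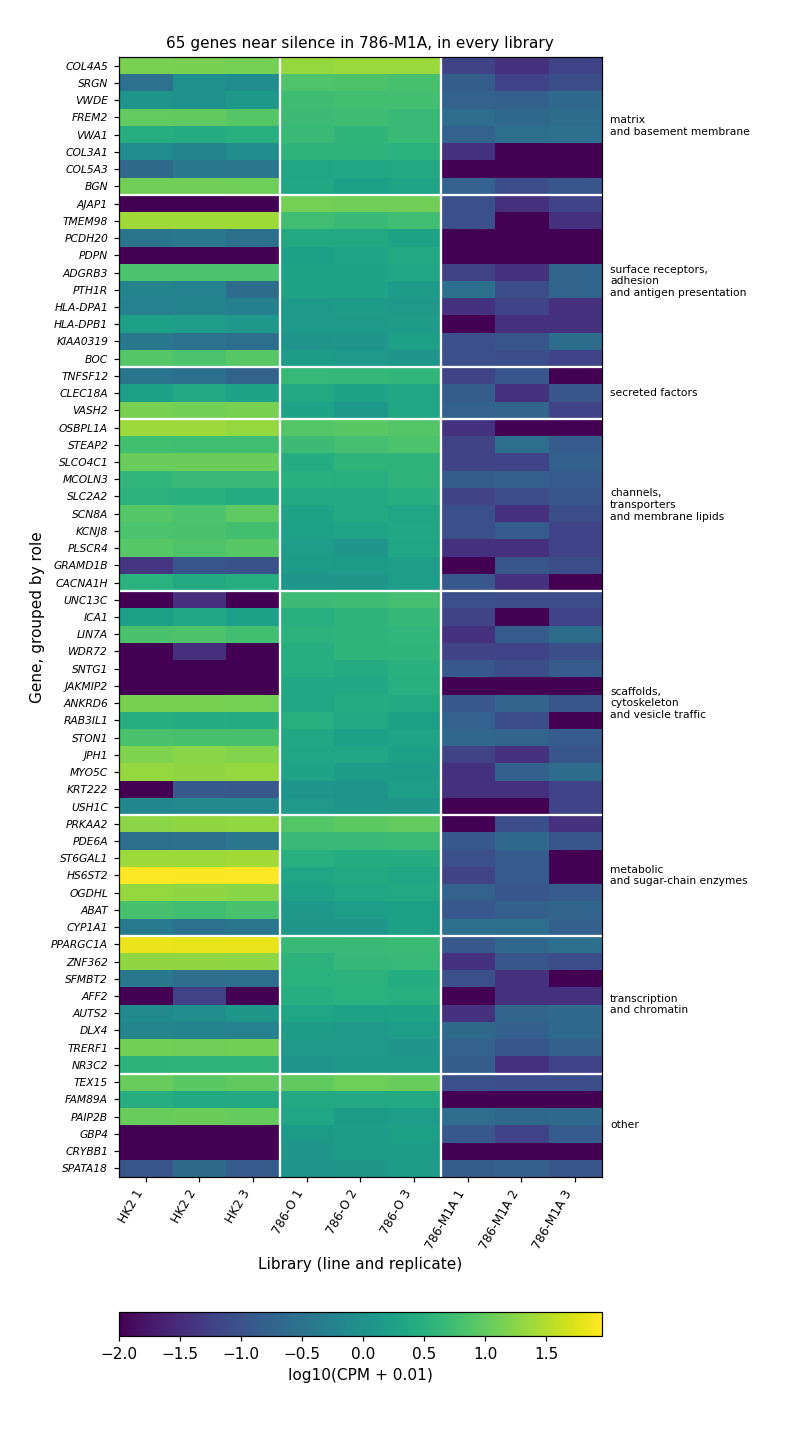
Colour map of log10(CPM + 0.01) for 65 of the 67 genes (rows, grouped by role and sorted by their 786-O mean) in the 9 libraries (columns, 3 per line). The 786-M1A columns are dark throughout, the 786-O columns are of middle brightness, and HK2 ranges from 0 counts (AJAP1, PDPN, SNTG1) to the brightest cells of the map (HS6ST2, PPARGC1A).

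For 61 genes a ratio of the pooled 786-O CPM to the pooled 786-M1A CPM could be formed, with an exact 95% interval that covers counting error only. These ratios ran from 6.15 to 911.6 with a median of 30.5. For the 6 genes at 0 the ratio is a lower bound set with 3 counts over the 3 libraries, and the bounds ran from 50.9 to 96.4.

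**Figure D2:**
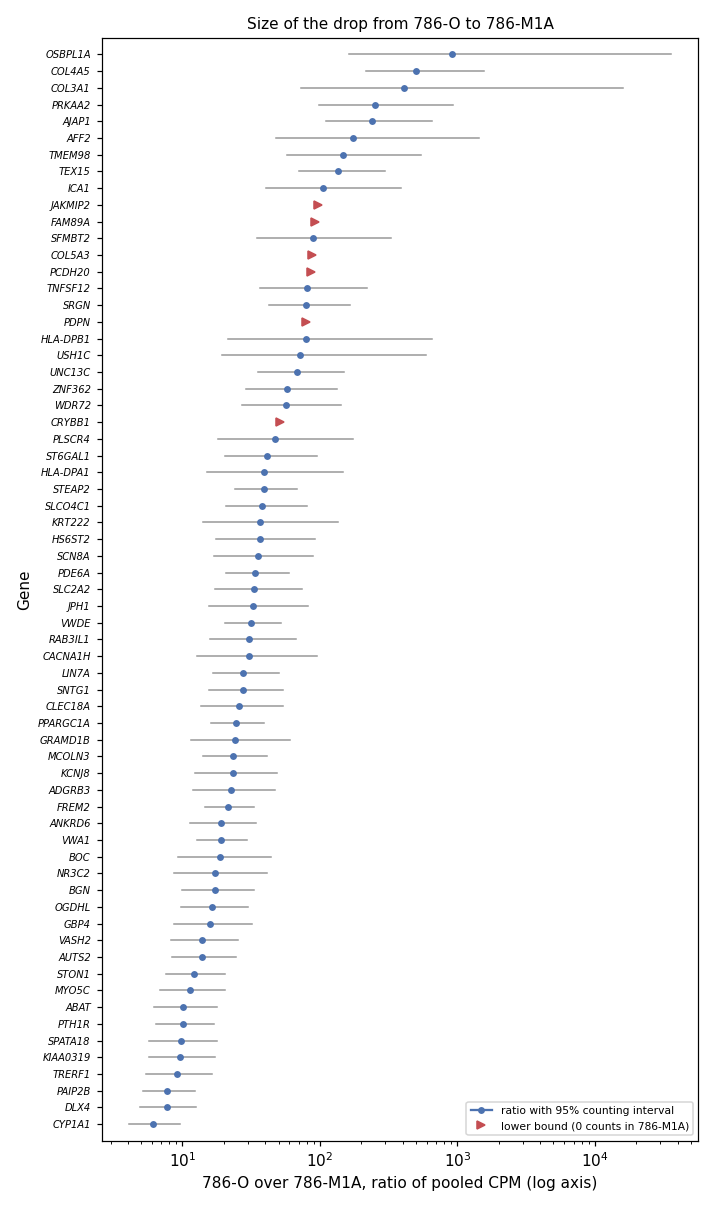
Ratio of pooled CPM in 786-O to that in 786-M1A for 65 of the 67 genes on a log axis, with the 95% counting interval as a line; triangles mark lower bounds for the 6 genes at 0 in 786-M1A. The ratios run from 6.15 (CYP1A1) to 911.6 (OSBPL1A), and genes with 1 or 2 counts in 786-M1A have the widest intervals.

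Genes of the extracellular matrix and basement membrane made up 9 of the 67. COL4A5, a chain of the type IV collagen of basement membranes, was the most abundant gene of the set in CPM. Its counts were 935, 864 and 985 in 786-O and 2, 1 and 2 in 786-M1A, a 503-fold ratio (95% interval 215.3 to 1550). HK2 lay below 786-O for COL4A5, at 447, 564 and 614 counts. The 786-O libraries stood above all HK2 libraries, and the log2 fold change from HK2 to 786-O was 0.69 ± 0.06 (SE; adjusted p = 8.47e-10, edgeR).

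COL3A1, a fibrillar collagen of soft connective tissue, counted 164, 141 and 144 in 786-O and 1, 0 and 0 in 786-M1A, a 405.6-fold ratio with a wide interval (72.4 to 16060). In HK2 it was low, at 26, 24 and 40 counts. COL5A3, a minor fibrillar chain, counted 98, 89 and 104 in 786-O and 0 in every 786-M1A library, at least 87.6-fold lower, and 7, 15 and 17 in HK2. Both of these collagens were therefore lower in each HK2 library than in each 786-O library.

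SRGN encodes serglycin, the core protein of a secreted proteoglycan, and per kilobase of exon it had the highest level of the set in 786-O (5.78 RPKM). It counted 330, 271 and 274 in 786-O, 5, 2 and 3 in 786-M1A, and 9, 38 and 38 in HK2. VWDE, a secreted protein with a von Willebrand factor domain, counted 234, 219 and 246 in 786-O, 6, 6 and 8 in 786-M1A, and 34, 39 and 60 in HK2. FREM2 is a basement membrane protein that anchors epithelium, and it counted 230, 198 and 193 in 786-O and 9, 8 and 9 in 786-M1A. HK2 held more FREM2, at 310, 393 and 381 counts, and the log2 fold change from HK2 to 786-O was −0.89 ± 0.09 (SE; adjusted p = 8.28e-09, edgeR).

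VWA1, a matrix protein with a von Willebrand factor A domain, sat at the upper limit of the rule with 6, 10 and 10 counts in 786-M1A, against 204, 148 and 193 in 786-O and 89, 108 and 146 in HK2. BGN, the small proteoglycan biglycan, was higher in HK2, with 102, 63 and 85 counts in 786-O and 387, 501 and 566 in HK2. Across the 9 matrix genes, 7 were higher in 786-O than in HK2 and 2, FREM2 and BGN, were lower, in an edgeR fit of all genes without a filter on low counts. In that fit 45.7% of the 12206 genes that reached the minimum in 786-O were higher and 37.7% lower.

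Collagens were the largest symbol family in the set, with 3 of the 20 collagen genes that reached the minimum in 786-O. The other collagens did not move in 1 direction between 786-O and 786-M1A: of 20 tested outside the set, 8 were lower, 8 higher and 4 not called in 786-M1A. Over all 12695 genes tested, 28% were called lower and 27.9% higher in this contrast. COL1A1, the main fibrillar collagen, had the largest fall, from 291 ± 34.7 to 16.5 ± 1.24 CPM (SD, n = 3; log2 fold change −4.15 ± 0.11, adjusted p = 2.7e-10, edgeR). COL12A1 had the largest rise, from 2.04 ± 0.113 to 19.4 ± 2.21 CPM (log2 fold change 3.24 ± 0.12, adjusted p = 1.1e-13, edgeR). COL1A1 and COL3A1 also belong to a list of fibroblast markers whose summed level was 279.1 to 348 CPM in 786-O, 20.4 to 23.9 in 786-M1A and 72.7 to 81.5 in HK2. LUM, another gene of the list, was lower in 786-M1A too (log2 fold change −1.42 ± 0.08), PDGFRA was at 0 in 786-O and 786-M1A, and DCN was below 0.2 CPM in all 3 lines. The part of other cells in these values was not tested.

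Receptors, adhesion proteins and antigen presentation genes made up 10 of the set. AJAP1, an adherens junction-associated membrane protein, counted 589, 479 and 533 in 786-O and 3, 1 and 2 in 786-M1A, a 241-fold ratio (110.5 to 657.9). It had 0 counts in every HK2 library, so 786-O was at least 505-fold higher than HK2. TMEM98, a membrane protein, had the opposite relation to HK2. It counted 764, 1009 and 1151 in HK2, 242, 178 and 233 in 786-O, and 3, 0 and 1 in 786-M1A, and was thus highest in HK2.

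PDPN encodes podoplanin, a mucin-like protein of podocytes and lymphatic vessels, and PCDH20 a cell adhesion protocadherin. PDPN counted 76, 77 and 108 in 786-O and 0 in all libraries of both other lines. PCDH20 counted 112, 92 and 82 in 786-O, 0 in each 786-M1A library, and 10, 15 and 13 in HK2. For both genes 786-O was the only line above 1 CPM.

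HLA-DPA1 and HLA-DPB1 encode the 2 chains of the class II molecule HLA-DP, which presents peptides to helper T cells, and lie head to head on chromosome 6 with overlapping gene bodies. HLA-DPA1 counted 59, 57 and 59 in 786-O and 1, 2 and 1 in 786-M1A. HLA-DPB1 counted 58, 51 and 65 in 786-O and 0, 1 and 1 in 786-M1A. In HK2 the pair differed, since HLA-DPA1 lay below 786-O at 17, 23 and 23 counts while HLA-DPB1, at 55, 65 and 60 counts, overlapped 786-O. Because the counting is not stated to use strand, reads in the shared stretch could have been credited to either gene.

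Of 11 other HLA genes tested, 1 was lower in 786-M1A, 3 were higher and 7 were not called. The lower gene was HLA-DMA, a class II peptide-loading chain, at 1.19 ± 0.135 CPM in 786-O and 0.275 ± 0.0477 in 786-M1A (SD, n = 3; log2 fold change −2.11 ± 0.23, adjusted p = 9.47e-08, edgeR). The largest rise among them was that of HLA-E, a class I gene, from 112 ± 1.28 to 134 ± 4.93 CPM (log2 fold change 0.26 ± 0.04, adjusted p = 6.49e-06, edgeR). The classical class I genes HLA-B and HLA-C were at 749 ± 10.5 and 534 ± 8.42 CPM in 786-O and were not called.

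PTH1R, the receptor for parathyroid hormone in kidney and bone, sat at the limit with 10, 3 and 7 counts in 786-M1A against 88, 74 and 62 in 786-O. In HK2 it counted 18, 22 and 11. ADGRB3, an adhesion receptor of the brain, counted 86, 74 and 89 in 786-O, 2, 1 and 7 in 786-M1A, and 216, 278 and 320 in HK2. BOC, a co-receptor for Hedgehog ligands, was likewise highest in HK2, at 257, 279 and 394 counts against 65, 50 and 50 in 786-O. KIAA0319, a membrane protein of neurons, had one of the smallest drops, from 1.36 ± 0.374 CPM in 786-O to 9.6-fold less in 786-M1A. Without the count filter, 6 of these 10 surface genes were higher in 786-O than in HK2, 3 (TMEM98, ADGRB3 and BOC) were lower and HLA-DPB1 was not called, beside the 45.7% higher and 37.7% lower given above.

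Secreted factors were few. TNFSF12, the cytokine TWEAK, counted 200, 161 and 170 in 786-O, 2, 4 and 0 in 786-M1A, and 10, 11 and 8 in HK2. VASH2, a tubulin carboxypeptidase and vasohibin, ran the other way, at 441, 524 and 645 counts in HK2, 87, 48 and 96 in 786-O and 6, 7 and 2 in 786-M1A. TNFSF12 shares a read-through transcript with its neighbour TNFSF13. CLEC18A, a secreted lectin, has near-identical copies in the genome between which reads may be split, and its HK2 and 786-O counts overlapped.

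Channels, transporters and lipid-handling proteins of membranes made up 10 genes. Without the count filter 7 of them were lower in 786-O than in HK2, 1 was higher and 2 were not called, beside 37.7% lower and 45.7% higher over the genes that reached the minimum in 786-O. OSBPL1A, an oxysterol-binding protein of late endosomes, had the largest ratio between the cancer lines, with 346, 333 and 330 counts in 786-O and 1, 0 and 0 in 786-M1A (911.6-fold, 95% interval 163.2 to 36040). In HK2 it counted 732, 964 and 983, and the log2 fold change from HK2 to 786-O was −1.49 ± 0.07 (SE; adjusted p = 3.35e-14, edgeR). STEAP2, a metalloreductase of iron and copper uptake, counted 229, 221 and 287 in 786-O and 2, 10 and 5 in 786-M1A. Its HK2 counts of 178, 219 and 252 overlapped 786-O once depth was taken into account (log2 fold change 0.10 ± 0.11, adjusted p = 0.387, edgeR).

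SLC2A2 encodes GLUT2, the glucose carrier of the proximal tubule, liver and pancreatic islets. It counted 110, 130 and 126 in HK2, 111, 96 and 125 in 786-O, and 2, 3 and 4 in 786-M1A. HK2 and 786-O thus overlapped, and the log2 fold change between them was −0.23 ± 0.12 (SE; adjusted p = 0.0927, edgeR). SLCO4C1, an organic anion carrier of kidney tubules, counted 348, 456 and 527 in HK2, 123, 141 and 159 in 786-O, and 2, 2 and 6 in 786-M1A.

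Of the voltage-gated channels, CACNA1H forms a T-type calcium channel and SCN8A a sodium channel. CACNA1H counted 106, 102 and 136 in HK2, 52, 46 and 70 in 786-O, and 4, 1 and 0 in 786-M1A. SCN8A counted 256, 278 and 430 in HK2, 88, 97 and 91 in 786-O, and 3, 1 and 3 in 786-M1A. Both were lower in every 786-O library than in any HK2 library after scaling to CPM. The 14 other tested genes whose symbols match sodium and calcium channels were split, with 6 lower, 4 higher and 4 not called in 786-M1A. The lower calls of TRPC1 (adjusted p = 0.0402, edgeR) and TRPC4 (adjusted p = 0.0369, edgeR) were each lost in some settings. The largest fall was that of CACNA2D1, an auxiliary calcium channel subunit (34.7 ± 0.69 to 8 ± 1.12 CPM; log2 fold change −2.12 ± 0.07, adjusted p = 1.89e-16, edgeR), and the largest rise that of TRPM8, the cold and menthol receptor (7.93 ± 0.636 to 18 ± 0.708 CPM; log2 fold change 1.19 ± 0.07, adjusted p = 5.06e-12, edgeR).

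MCOLN3, KCNJ8, PLSCR4 and GRAMD1B complete this group. MCOLN3, a calcium channel of endosomes, KCNJ8, a pore subunit of ATP-sensitive potassium channels, and PLSCR4, a phospholipid scramblase, were each lower in 786-O than in HK2, with log2 fold changes of −0.44, −1.64 and −2.30. GRAMD1B, a carrier of cholesterol between membranes, was the exception, at 1, 4 and 4 counts in HK2 and 68, 53 and 66 in 786-O.

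The largest role group held 13 genes of scaffolds, the cytoskeleton and vesicle traffic. Without the count filter 7 were higher in 786-O than in HK2, 5 were lower and 1 was not called. Over the genes that reached the minimum in 786-O, 45.7% were higher and 37.7% lower. At most 10 counts in each HK2 library were held by 5 of the 13, beside 1.18% of those genes. UNC13C, a priming factor of synaptic vesicles, counted 225, 203 and 251 in 786-O, 3, 3 and 3 in 786-M1A, and 0, 1 and 0 in HK2. WDR72, a vesicle protein of enamel and kidney, counted 127, 146 and 166 in 786-O, 2, 2 and 3 in 786-M1A, and 0, 1 and 0 in HK2. The 2 genes lie on opposite strands of chromosome 15 with 74.7 kb between them (WDR72 at 53513741 to 53762878, UNC13C at 53837602 to 54633440, GRCh38). They are adjacent among genes that reached the minimum in 786-O. JAKMIP2, a protein that binds Janus kinases and microtubules, counted 106, 88 and 126 in 786-O and 0 in every library of the other lines. SNTG1, a syntrophin scaffold, counted 131, 101 and 136 in 786-O, 4, 3 and 5 in 786-M1A, and 0 in HK2.

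KRT222, a truncated keratin-like protein, counted 53, 42 and 67 in 786-O, 1, 1 and 2 in 786-M1A, and 0, 5 and 5 in HK2. USH1C, the scaffold harmonin of brush borders and hair cells, counted 60, 45 and 53 in 786-O, 0, 0 and 2 in 786-M1A, and 21, 29 and 33 in HK2. MYO5C, a myosin that carries vesicles in epithelial cells, was mainly an HK2 gene, at 655, 805 and 1001 counts, against 84, 55 and 63 in 786-O and 1, 6 and 9 in 786-M1A. The log2 fold change of MYO5C from HK2 to 786-O was −3.69 ± 0.11 (SE; adjusted p = 3.08e-18, edgeR). JPH1, ANKRD6, STON1 and LIN7A were also lower in 786-O than in HK2, ICA1 was higher, and RAB3IL1 was not called.

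Among 7 metabolic and sugar-chain enzymes, 5 were lower in 786-O than in HK2 and 2 higher without the count filter, beside 37.7% and 45.7% of genes. HS6ST2, which adds sulfate to heparan sulfate chains, had the highest HK2 level of the set. It counted 2814, 3489 and 4117 in HK2, 97, 94 and 92 in 786-O, and 2, 5 and 0 in 786-M1A. The ratio of HK2 to 786-O was 38.9 (34.6 to 43.9). That of 786-O to 786-M1A was 36.5 (17.5 to 91.7), and the intervals overlapped. ST6GAL1, the sialyltransferase of N-glycans, counted 751, 972 and 1186 in HK2, 136, 105 and 121 in 786-O, and 3, 5 and 0 in 786-M1A.

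PRKAA2, a catalytic subunit of the energy sensor AMPK, counted 580, 817 and 959 in HK2, 345, 346 and 427 in 786-O, and 0, 3 and 1 in 786-M1A, a 252.5-fold ratio between the cancer lines (98.3 to 928.4). OGDHL, a relative of the 2-oxoglutarate dehydrogenase subunit, counted 674, 795 and 823 in HK2 and 81, 90 and 102 in 786-O, and ABAT, the GABA transaminase, 199, 220 and 304 in HK2 and 57, 59 and 75 in 786-O. PDE6A, a cyclic GMP phosphodiesterase of the retina, was higher in 786-O, with 213, 180 and 208 counts against 8, 11 and 17 in HK2 and 4, 8 and 4 in 786-M1A. CYP1A1, the dioxin-inducible monooxygenase, had the smallest ratio of the set (6.15; 4.06 to 9.68), with 55, 47 and 75 counts in 786-O, 10, 10 and 6 in 786-M1A, and 13, 12 and 16 in HK2.

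The 9 transcription and chromatin genes were split by HK2 as well. PPARGC1A, the coactivator PGC-1 alpha of mitochondrial biogenesis, counted 2137, 2574 and 3046 in HK2, 209, 177 and 210 in 786-O, and 4, 8 and 10 in 786-M1A. Its log2 fold change from HK2 to 786-O was −3.79 ± 0.06 (SE; adjusted p = 1.29e-22, edgeR). NR3C2, the mineralocorticoid receptor of aldosterone, had the lowest mean 786-O count of the set, with 51, 48 and 55 counts, against 114, 149 and 172 in HK2 and 5, 1 and 2 in 786-M1A. TRERF1, a zinc finger coregulator of steroid synthesis genes, counted 405, 498 and 597 in HK2, 60, 52 and 49 in 786-O, and 6, 4 and 6 in 786-M1A. ZNF362 was also lower in 786-O than in HK2 (log2 fold change −2.25 ± 0.09).

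The other 5 factors were higher in 786-O than in HK2 in the fit without a count filter, beside 45.7% of genes. AFF2, a subunit of elongation complexes, counted 128, 125 and 130 in 786-O, 0, 1 and 1 in 786-M1A, and 0, 2 and 0 in HK2. SFMBT2, a Polycomb-related MBT protein, counted 149, 129 and 119 in 786-O, 3, 1 and 0 in 786-M1A, and 12, 10 and 12 in HK2. AUTS2 and DLX4 had the same order of lines as SFMBT2 with smaller gaps.

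Of the 6 remaining genes, TEX15, a factor of meiosis and germ cells, was the most abundant, with 438, 449 and 460 counts in 786-O and 3, 3 and 3 in 786-M1A. HK2 overlapped 786-O at 336, 358 and 458 counts, and the gene was not called between the 2 lines (log2 fold change 0.14 ± 0.08, adjusted p = 0.108, edgeR). FAM89A counted 107, 91 and 110 in 786-O and 0 in each 786-M1A library, and HK2 overlapped 786-O at 91, 103 and 112. CRYBB1, a crystallin of the lens, counted 51, 56 and 62 in 786-O and 0 elsewhere. GBP4, an interferon-induced GTPase, counted 64, 55 and 74 in 786-O, 4, 2 and 5 in 786-M1A, and 0 in HK2. SPATA18, a mitochondrial quality factor, was near-silent in HK2 at 3, 9 and 6 counts, and PAIP2B, a regulator of translation, was highest there at 339, 463 and 495.

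HK2 counts were not used by the rule, and they divided the set. Of the 67 genes, 12 had at most 10 counts in each HK2 library, 38 averaged at least 50 and 17 lay between. The near-silent 12 were AJAP1, UNC13C, WDR72, AFF2, SNTG1, JAKMIP2, PDPN, GBP4, GRAMD1B, CRYBB1, SPATA18 and KRT222. The share near-silent in HK2 was 17.9%, against 1.18% of the 12206 genes with a 786-O mean of at least 50 counts. Low genes are more often absent from a given line, so the shares were also set side by side within bands of the 786-O mean. Between 50 and 100 counts 17.1% of the set and 5.13% of other genes were near-silent in HK2, between 100 and 200 counts 20% and 3.19%, and between 200 and 1000 counts 16.7% and 1.39%. The set exceeded the other genes in each of the 3 bands, with 6, 4 and 2 genes of the set in them.

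**Figure D3:**
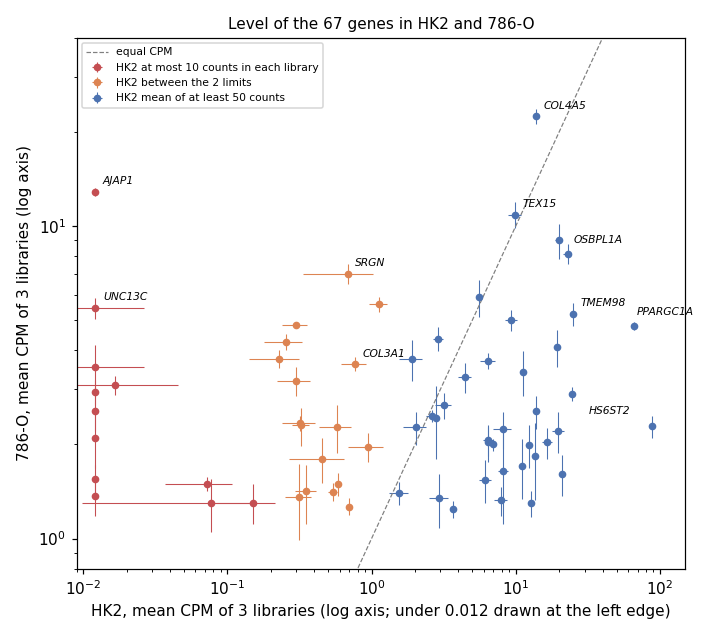
Mean CPM in HK2 and in 786-O for each gene, both on log axes, with the SD over 3 libraries as bars, coloured by the HK2 class; the dashed line marks equal levels. The 12 genes near-silent in HK2 lie at the left, AJAP1 highest among them, and the 38 with a mean of at least 50 counts lie around and to the right of the line as far as HS6ST2.

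The direction of the difference between HK2 and 786-O was close to that of other genes. Every HK2 library was above every 786-O library, in CPM, for 28 genes and below for 32, and 7 overlapped. Among genes with a 786-O mean of at least 50 counts, every HK2 library was above for 39.6% and below for 45.1%. In the edgeR fit without a count filter, 32 genes (47.8%) were higher in 786-O than in HK2, 28 (41.8%) were lower and 7 were not called. Over genes with a 786-O mean of at least 50 counts in that fit, 45.7% were higher and 37.7% lower, and over all 21241 genes tested in it 30.5% were higher and 33.3% lower. The 7 genes not called were TEX15, STEAP2, SLC2A2, FAM89A, RAB3IL1, CLEC18A and HLA-DPB1, and all 7 were among those whose libraries overlapped.

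The filter used for the other tests asked for 50 counts or more on average in the 9 libraries, and 45 of the 67 genes passed it. The filter kept genes that were high in HK2 and dropped 22 others, 21 of which were higher in 786-O, so its counts do not describe the set as a whole. Among the 45, 28 were lower and 11 higher in 786-O than in HK2 and 6 were not called, beside 42.6% lower and 41.6% higher over all genes tested. Between 786-M1A and HK2, 43 were lower in 786-M1A and 2 higher, where all genes tested were 43.3% lower and 41.6% higher. The rule had capped the 786-M1A counts and the filter kept genes high in another line, so these calls largely follow from the choice of genes and nothing is read from them. The 2 higher genes were AJAP1 and UNC13C, whose 786-M1A counts were 1 to 3 per library and whose HK2 counts were 0 or 1.

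The genes of the set were long. The median distance from start to end of a gene was 70 kb, against 32.4 kb for protein-coding genes with a 786-O mean of at least 50 counts. More than 100 kb was spanned by 28 of the 67 genes, or 41.8%, against 19.3%. AUTS2 was the longest at 1195 kb, and SNTG1 at 886.9 kb, UNC13C at 795.8 kb and ADGRB3 at 754.2 kb were also among the longest. The difference in share was present in each band of the 786-O mean, at 31.4% against 12.7%, 60% against 17.6%, and 41.7% against 18.1%. In the bands the other genes were not limited to protein-coding genes. Length was not used by the rule, and no test was made of it.

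**Figure D4:**
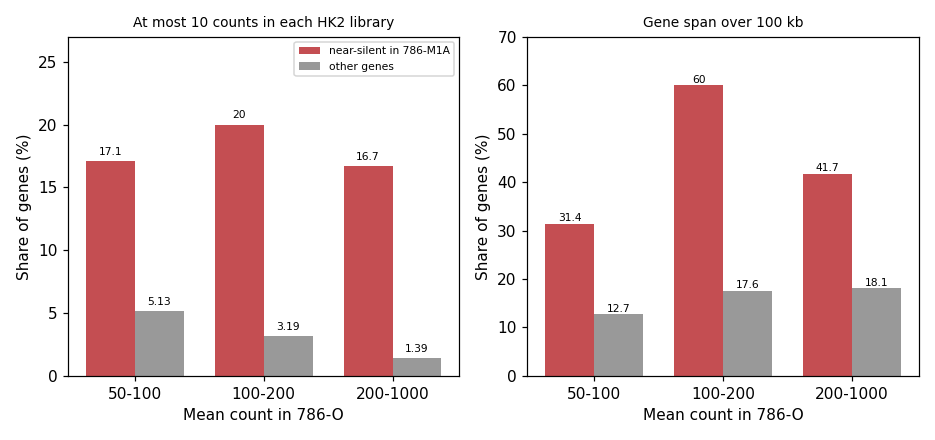
Share of genes with at most 10 counts in each HK2 library (left) and share spanning over 100 kb (right), for the 67 genes and for all other genes in 3 bands of the 786-O mean count. The set is above the other genes in each band of both panels; the bands hold 35, 20 and 12 genes of the set and 780, 846 and 3377 others.

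The genes were spread over the chromosomes, with 11 on chromosome 1, 6 on chromosome 6 and 5 on chromosome 3, and none on chromosomes 9, 14, 20 or 21. Among genes that reached the minimum in 786-O, only WDR72 with UNC13C and HLA-DPA1 with HLA-DPB1 stood next to another gene of the set. The nearest tested genes on either side of the set, 130 genes outside it, asked whether the loss extended along the chromosome. Of these, 45 (34.6%) were lower in 786-M1A than in 786-O, beside 28% of all genes tested, 25 (19.2%) were higher, beside 27.9%, and 60 were not called. Their median log2 fold change was −0.06, and 11 (8.46%) were lower by at least 2-fold, beside 4.55% of all genes tested. OLFM2, 1 of the 11, averaged only 3.7 counts in 786-O and 0.7 in 786-M1A, and its call was lost in some settings. A nearest tested gene could also lie far off, as did PCDH9, another of the 11, at 4887 kb from PCDH20.

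Within 50 kb there were 49 neighbours, of which 16 were lower, 7 higher and 26 not called. The strongest fall was that of RRAGD, a GTPase of lysosomal nutrient sensing that lies 20.9 kb from ANKRD6. RRAGD counted 48, 51 and 49 in 786-O and 1, 2 and 2 in 786-M1A (log2 fold change −4.65 ± 0.33, adjusted p = 1.27e-10, edgeR), which put it just short of the minimum of the rule. MCOLN2, a paralog and neighbour of MCOLN3, fell from 4.62 to 1.08 CPM, and COL5A2 beside COL3A1 from 9.01 to 2.91 CPM. PPARGC1B, a coactivator related to PPARGC1A, overlaps PDE6A by its annotated end and fell from 3.83 to 1.49 CPM (log2 fold change −1.35 ± 0.13, adjusted p = 1.01e-08, edgeR). Of the 81 neighbours farther than 50 kb, 29 were lower, 18 higher and 34 not called. Among them MYO1D, a membrane-linked myosin 51 kb from TMEM98, fell from 19.7 to 3.35 CPM (log2 fold change −2.55 ± 0.07, adjusted p = 1.89e-17, edgeR), and SLC4A8, 75.5 kb from SCN8A, from 7.36 to 1.97 CPM.

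Other neighbours rose. HAUS7, a subunit of the spindle complex augmin, overlaps BGN on the opposite strand and rose from 27.5 to 49.7 CPM (log2 fold change 0.86 ± 0.05, adjusted p = 2.68e-12, edgeR). CCNQ on the other side of BGN rose from 24.8 to 45.7 CPM. C5orf46 near JAKMIP2 had the highest change of the neighbours, from 1.43 to 4.27 CPM (log2 fold change 1.57 ± 0.13, adjusted p = 4.52e-09, edgeR).

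**Figure D5:**
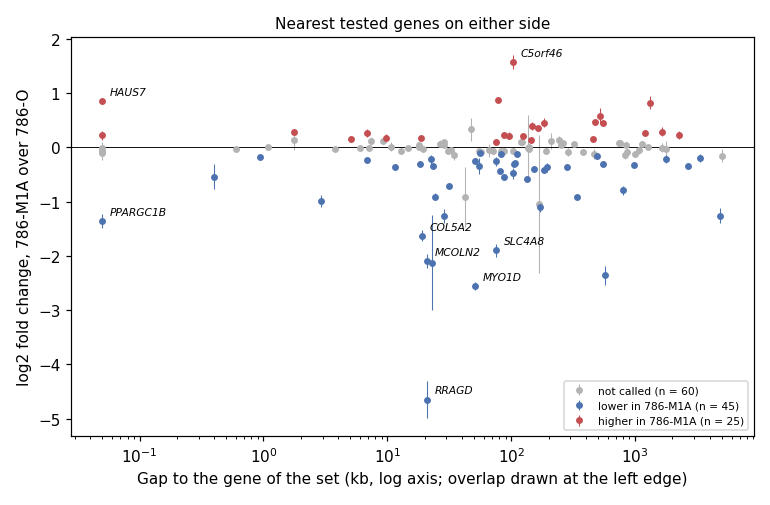
log2 fold change from 786-O to 786-M1A (with SE) of the 130 nearest tested genes outside the set, against their distance in kb from the gene of the set on a log axis, coloured by call. The points scatter around a median of −0.06, RRAGD lies lowest at −4.65, and 45 genes are called lower and 25 higher.

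Genes that write, read or erase DNA methylation and the Polycomb mark were listed for comparison. Of 23 tested, 12 were lower in 786-M1A than in 786-O, 1 was higher and 10 were not called, beside 28% and 27.9% of all genes tested. Their median log2 fold change was −0.21, against 0 over all genes tested. The list includes 5 erasers (TET1, TET2, TET3, KDM6A and KDM6B), of which 4 were lower and 1 was not called. Of the 18 others, 8 were lower, 1 was higher and 9 were not called, with a median of −0.07. The lower calls of the eraser TET3 (adjusted p = 0.0404, edgeR) and of BMI1 among the others (adjusted p = 0.0122, edgeR) were each lost in some settings. The following were picked after their values were seen. EZH2, the methyltransferase of Polycomb complex PRC2, was the higher gene, at 85.5 ± 2.53 and 118 ± 2.81 CPM (log2 fold change 0.46 ± 0.04, adjusted p = 1.48e-09, edgeR). Its partner SUZ12 went the other way, at 117 ± 4.07 and 80.4 ± 2.83 CPM (log2 fold change −0.54 ± 0.04, adjusted p = 2.51e-10, edgeR), as did TET2, which oxidizes methylated cytosine (log2 fold change −0.74 ± 0.07). Of 14 genes of H3K9 silencing, 3 were lower, 2 higher and 9 not called.

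The limits of the rule fell inside a continuous range of values. Just inside the 786-O minimum were NR3C2, USH1C, TRERF1 and KRT222, with means of 51.3 to 54 counts, and just outside it were RRAGD, C14orf132, TLE2 and SFRP2, with 49.3, 48.7, 47.7 and 47 counts. The highest 786-M1A count inside was 10, in VWA1, CYP1A1, PTH1R and PPARGC1A, and LRFN5, EPHA5 and HDX at 11 and KIF5C at 12 were left out. By their RefSeq positions, 24 of the 67 genes overlap another gene of the table, so that reads of the pair may be shared.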

How the data were processed

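Per the labels, RNA of HK2, 786-O and 786-M1A cells was made into stranded mRNA libraries, 3 per line. The authors aligned the reads to GRCh38 and deposited raw counts per gene, made with featureCounts; the annotation release and strand setting are not given in the sources used here. Depth was 30212291 to 45362428 counts per library, and intervals cover counting error only. The members, gene lists and role groups were chosen with earlier results of these data known, the role groups after the members were known; every member could be named, and the genes at both limits, in families, next to each other or highest in CPM are given in every library. CPM used TMM-scaled totals (edgeR 4.0.16, R 4.3.3). Tests between lines were edgeR quasi-likelihood tests with Benjamini-Hochberg adjustment over the 12695 genes that averaged 50 counts or more, at a threshold of 0.05, on all 9 libraries together, and the script was tested on simulated data. Alternatives were DESeq2 1.42.0, RLE scaling, limma-voom (limma 3.58.1), other count filters, fits of the 2 lines compared, a replicate block, and leaving out each library. Symbols and positions came from RefSeq (27745 of 28395 genes matched), promoters from RefSeq on GRCh38.p14. Values of 2 members, of 1 marker gene and of 1 motif are not reported here one by one, and counts and sums include these genes.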

Additional observations from a re-analysis of the deposited data

How the results depend on the processing

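The count filter moved the results for members most. Between 786-O and HK2, 11 members were higher in 786-O with a mean of at least 50 counts, and 32 without a filter or with filterByExpr of edgeR, since 67 in place of 45 members were then tested. Between 786-M1A and HK2, 2 were higher in 786-M1A and 5 under either of those filters. The number of members was 41 with at most 5 counts in each 786-M1A library, 122 with at most 20, and 32 with a 786-O mean of at least 100, and it was 57 with 50 counts in each 786-O library and 60 with counts scaled for depth. Leaving out 1 library gave 62 to 72 members, 8 to 14 members higher and 28 to 29 lower in 786-O than in HK2, 2 to 3 higher and 40 to 44 lower in 786-M1A than in HK2, and 22 to 26 neighbours higher and 38 to 44 lower in 786-M1A than in 786-O. Under DESeq2, RLE scaling, limma-voom and fits of 2 lines, each of these counts of calls stayed within 1.5 times the reported count. With a replicate block, 11 members were higher and 28 lower in 786-O than in HK2, 2 higher and 43 lower in 786-M1A than in HK2, and 25 neighbours higher and 45 lower. Samples with the same replicate number correlated at −0.167 to 0.215 in their deviations, so the numbers were not taken to pair the samples. None of the 39 calls of members between 786-O and HK2 was lost or reversed over 615 values. These values cover only settings in which the gene passed the count filter. Leaving out a 786-O library left 42 to 43 members tested in place of 45, and members so dropped are not in the 615 values. Of 132 other genes called between 786-M1A and 786-O, 23 lost their call in some setting and 0 reversed. Depth limits the low end: 3 counts over the 786-M1A libraries correspond to 0.0267 CPM, and the 12 members near-silent in HK2 stayed 12 after scaling for depth.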

Other observations

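The reverse rule, a mean of at least 50 counts in 786-M1A and at most 10 in each 786-O library, found 12 genes, of which 5 are named here after their values were seen. CXCR4, a chemokine receptor, counted 1, 5 and 4 in 786-O and 232, 204 and 215 in 786-M1A, with 0, 1 and 2 in HK2. PRTFDC1, a relative of a purine salvage enzyme, counted 3, 3 and 4 in 786-O, 155, 135 and 151 in 786-M1A, and 1569, 2098 and 2279 in HK2. IGFBP4, which binds insulin-like growth factors, counted 6, 3 and 6 in 786-O, 86, 70 and 76 in 786-M1A, and 300, 406 and 420 in HK2. HNMT, the histamine methyltransferase, had the same order, with 2, 7 and 9, then 56, 56 and 63, then 243, 324 and 394 counts. TCHH, trichohyalin of hair follicles, was low in HK2 instead, at 2, 1 and 2 counts, with 10, 10 and 6 in 786-O and 94, 112 and 139 in 786-M1A.

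CpG-dense promoters were less frequent among the members near-silent in HK2, at 4 of 9 with a window (44.4%), than among those with an HK2 mean of at least 50 counts, at 23 of 33 (69.7%). These are small numbers given with no test.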
